A study of Mus musculus with 2 samples.

Results

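The 9 genes described here encode transcription factors that set the effector state or the lineage of T cells: Tbx21 (T-bet), Eomes, Zeb2, Prdm1 (BLIMP-1), Id2, Maf (c-MAF), Gata3, Bcl6 and Zbtb16 (PLZF). They were taken by symbol from the gene tables of both libraries and make up 9 of 30905 genes. None of them was used to group or to name cells. T-bet and EOMES are related T-box factors that drive cytotoxic genes and interferon-γ in CD8 T cells, T-bet being tied to short-lived effector cells and EOMES to memory. ZEB2, a zinc finger repressor induced downstream of T-bet, and BLIMP-1 promote the terminal effector state marked by the receptor KLRG1, while ID2 keeps E protein factors from binding DNA. Among the lineage factors, GATA3 directs Th2 cells, BCL6 directs T follicular helper (Tfh) cells and opposes BLIMP-1, c-MAF acts in Tfh, IL-10-producing and IL-17-producing T cells, and PLZF gives NKT and other innate-like T cells their rapid cytokine response.

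T cells of the spleen were compared between a Prmt5-CKO library and a Control library by droplet single-cell RNA sequencing. The Prmt5-CKO mice carry a CD4-Cre transgene and a floxed Prmt5 gene, which encodes an arginine methyltransferase. The Control sample is named a control and WT in its title and in the design text, although its genotype field reads the same as that of the Prmt5-CKO sample, so groups were taken from titles. Both groups are on the C57BL/6 strain, and cells were sorted for CD3 by flow cytometry. The age of the mice is not given in the sources used here. CD4-Cre is active from the stage of thymic development at which cells carry both CD4 and CD8, so it acts in CD4 and CD8 T cells alike, and cells that do not pass that stage can keep the gene. The design text gives 3 mice in each group, and cells could not be assigned to mice, so each group is 1 library, no test across replicates exists and genotype and library cannot be told apart. The series title asks about Klrg1+ CD8 terminal effector cells, the state in which several of these factors act.

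The factors that share the terminal effector programme can be set beside the DNA before the RefSeq starts of their genes. RefSeq (GRCm38.p6) gave promoter windows for 7 of the 9 genes, 11 windows in all, since Zeb2 and Bcl6 have several starts. In the 250 bases before each start, the T-box core GGTGTG (or CACACC on the other strand) and the E-box bound by ZEB factors, CAGGTG (or CACCTG), were searched on both strands. Windows of Tbx21, Zeb2 and Prdm1 are shown, 5′ to 3′ on the gene's strand, because these 3 genes had their highest levels in 1 type of cell, effector-like CD8 cells, in the Prmt5-CKO library among types with at least 50 cells. Capitals mark the match. The Tbx21 window is chr11:97115332-97115581, minus strand, with CAGGTG beginning 196 bases before the start. The Zeb2 window, chr2:45113280-45113529, minus strand, belongs to the second of 4 listed starts, lies inside the gene as GENCODE draws it, and has GGTGTG beginning 137 bases before the start; the window of its first start held neither motif. The Prdm1 window is chr10:44458749-44458998, minus strand, and also lies inside the gene as GENCODE draws it (chr10:44437177-44528501), with CAGGTG beginning 87 bases before the start.
Tbx21: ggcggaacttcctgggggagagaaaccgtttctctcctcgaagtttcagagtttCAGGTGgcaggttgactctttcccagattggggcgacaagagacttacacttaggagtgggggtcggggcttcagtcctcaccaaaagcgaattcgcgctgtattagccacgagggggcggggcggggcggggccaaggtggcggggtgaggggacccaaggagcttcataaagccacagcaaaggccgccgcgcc
Zeb2: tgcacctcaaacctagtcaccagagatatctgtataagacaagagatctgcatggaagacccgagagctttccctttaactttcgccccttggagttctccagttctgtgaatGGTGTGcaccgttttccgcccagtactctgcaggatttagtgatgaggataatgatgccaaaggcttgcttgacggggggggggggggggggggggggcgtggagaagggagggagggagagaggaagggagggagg
Prdm1: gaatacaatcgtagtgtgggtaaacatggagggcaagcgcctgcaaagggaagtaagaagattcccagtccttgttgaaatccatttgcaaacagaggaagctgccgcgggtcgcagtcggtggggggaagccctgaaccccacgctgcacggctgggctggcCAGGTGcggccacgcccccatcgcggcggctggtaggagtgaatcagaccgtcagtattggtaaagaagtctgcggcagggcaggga
Across 32851 windows of 27025 genes, 16.3% held the T-box core and 17.2% the E-box, so a match is common. The windows of Eomes, Id2 and Bcl6 held neither, and that of Gata3 held GGTGTG 169 bases before the start. These matches describe letters and not binding.

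The Prmt5-CKO library held 7896 barcodes with 52387620 unique molecular identifiers (UMIs, 1 per captured RNA molecule), and the Control library 7407 barcodes with 48273424 UMIs. After filtering, 7567 Prmt5-CKO and 6620 Control cells were T cells, with medians of 6049 and 6288.5 UMIs. Prmt5 itself had 250 UMIs in Prmt5-CKO T cells and 702 in Control T cells, 4.87 and 15.03 UMIs per 1000000 UMIs counted (CPM), a log2 ratio of -1.63 (-1.84 to -1.42). Which exons the floxed gene loses is not given in the labels, so these reads from the 3′ end show the level of RNA and not the deletion. In effector-like CD8 cells Prmt5 had 12 UMIs in the Prmt5-CKO and 11 UMIs in the Control library (log2 ratio -1.65, -2.96 to -0.33). The sorted lineage marker Cd3e had a UMI in 7211 of 7567 Prmt5-CKO and 6436 of 6620 Control T cells. The libraries shared 11 barcodes. Cells with a UMI of a Y-linked gene made up 32.7% of Prmt5-CKO and 27.6% of Control T cells, and cells with an Xist UMI 47.0% and 50.8%. Control cells were of lower quality by 1 measure: 74.5% of Prmt5-CKO but 46.3% of Control T cells passed a stricter filter of at least 1000 genes and under 5% mitochondrial UMIs. The stricter filter was also applied with the types kept, for Tbx21, Eomes, Zeb2, Prdm1, Id2, Maf, Zbtb16 and Klrg1. Those values cover all T cells, the CD8 class and the types, and the ones that bear on main results are given below. Gata3, Bcl6, the CD4 class and the gene lists have no value of that kind here.

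Levels below are CPM, the UMIs of a gene summed over the cells of a type and library, per 1000000 UMIs of that sum. Brackets and error bars are exact 95% intervals that cover counting error only, not the spread between mice. A factor was counted as higher or lower when its ratio of Prmt5-CKO over Control reached 1.5-fold, on at least 50 UMIs over both libraries. That count is no test, and the share of all genes past the same limits is given beside it. Cell types bear the name of marker genes they resemble. Effector-like CD8 cells (149 Prmt5-CKO and 45 Control cells) were led by Gzma, Ccl5 and Zeb2, and memory-like CD8 cells (48 and 203) by Ly6c2 and Ctla2a. Over both libraries 79.4% of the effector-like cells had a Cd8b1 UMI, 14.9% a Cd4 UMI and 33.5% a UMI of the γδ marker Trdc. This type may thus hold γδ-like and other cells beside CD8 cells, and their part in its levels was not tested. Of the memory-like cells, 22 of 48 in the Prmt5-CKO and 196 of 203 in the Control library had a Cd8b1 UMI, and cluster 3.5 supplied 6 and 81 of them. Memory-like CD4 cells were kept as an S100a4-high type (146 and 89 cells) and an S100a4-low type (23 and 301 cells), the second led by Maf itself and by Tbc1d4. The S100a4-high type joins a cluster with Tmem176a and Il22 among its leading genes (78 and 30 cells) and a cluster with Ifng and Ccl5 (68 and 59 cells). Over both libraries 28.7% and 20.5% of the cells of these clusters had a Trdc UMI. The S100a4-high type may thus hold γδ-like cells too, and their part in its levels was not tested. Of the 4081 Prmt5-CKO and 2918 Control naive-like CD4 cells, 1256 and 29 fell into cluster 7. Cluster 14 (103 and 15 cells), led by Cd163l1 and Il17a, goes by its number because its leading genes include listed markers of γδ and of memory CD4 cells. A Trdc UMI was seen in 92.4% and a Cd4 UMI in 12.7% of its cells over both libraries, so most of them were γδ-like. The Fcer1g cluster (281 and 158 cells) had natural killer (NK) markers, with Cd3e UMIs in 277 of 281 and 153 of 158 cells. It joins clusters 3.0, 3.1, 3.3 and 3.4. The γδ marker Trdc had a UMI in 77.9%, 63.0%, 24.3% and 26.5% of their cells over both libraries, so this type holds γδ-like cells too. The Sox4 and Tnfrsf9 clusters go by genes of the marker shares that named them. Myb led the Sox4 cluster, and Sox4 also led a cluster of naive-like CD4 cells. Over both libraries 64.6% of cells of the Sox4 cluster had a Cd8b1 UMI and 11.05% a Cd4 UMI, yet it was not counted in the CD8 class.

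**Figure D1:**
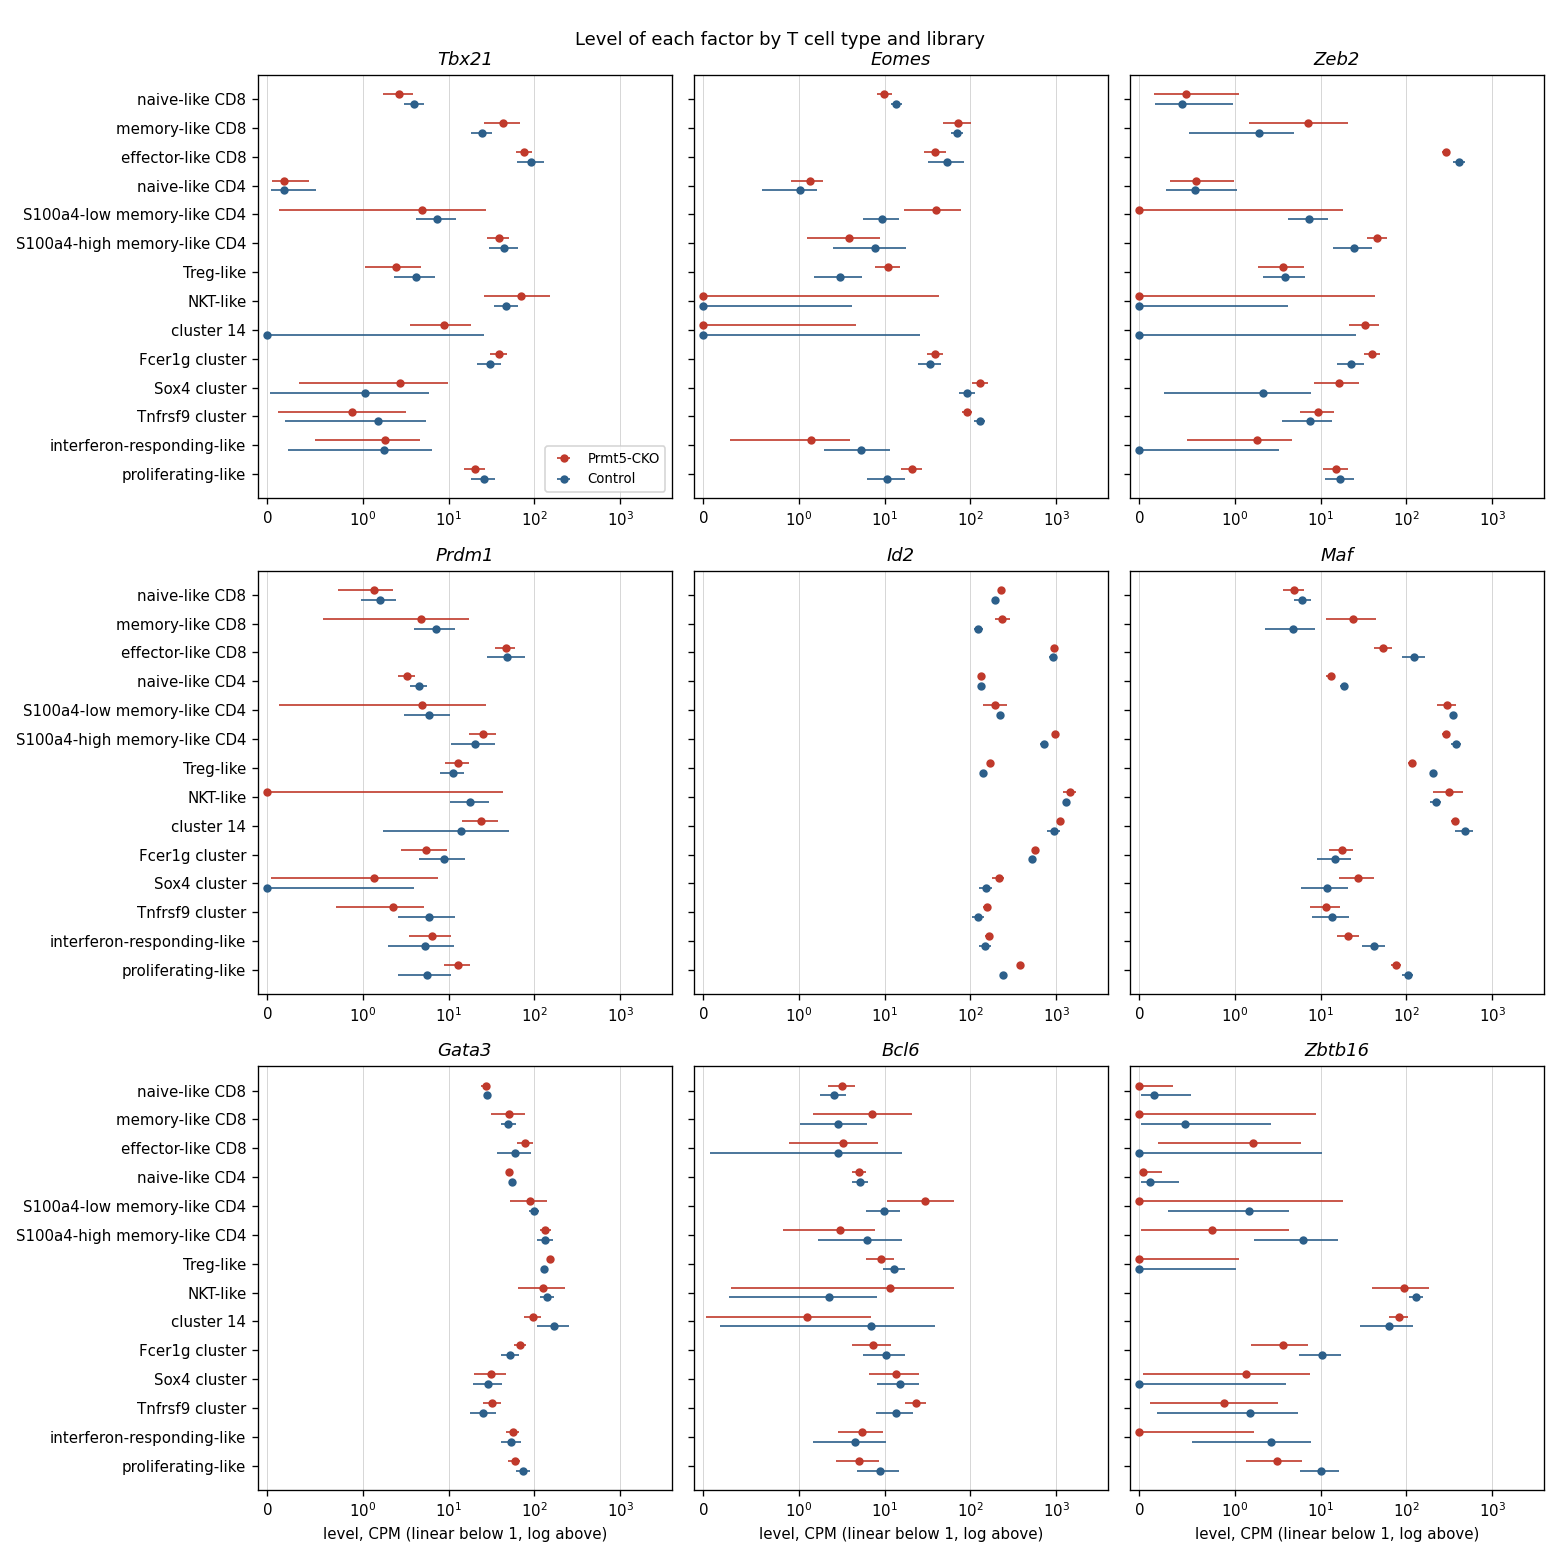
Level of each of the 9 factors in CPM (horizontal axis, linear below 1 and log above) in 14 T cell types (rows), with Prmt5-CKO points above Control points and exact 95% counting intervals as bars. Zeb2 stands at 291 CPM in Prmt5-CKO and 410 CPM in Control effector-like CD8 cells, whereas Zbtb16 is high in NKT-like cells and cluster 14.

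Zeb2, on the minus strand at chr2:44983632-45117395 of mm10, was held by few cells. In effector-like CD8 cells it had 353 UMIs in the Prmt5-CKO and 145 UMIs in the Control library, 291 CPM (262 to 324) and 410 CPM (346 to 482). This type held 55.3% of all Zeb2 UMIs of Prmt5-CKO T cells and 51.8% of those of Control T cells, while it made up 1.97% and 0.680% of the T cells. A Zeb2 UMI was seen in 95 of 149 Prmt5-CKO and 31 of 45 Control effector-like cells, and in 40.9% and 50.3% of them after every cell was thinned to 2000 UMIs. In naive-like CD4 cells, which should lack the gene, the thinned share was 0.0986% and 0.0824%. Next came S100a4-high memory-like CD4 cells, with 45.8 CPM (34.9 to 58.9) in the Prmt5-CKO and 24.7 CPM (14.1 to 40.04) in the Control library, and the Fcer1g cluster with 40.3 CPM (32.3 to 49.6) and 22.8 CPM (15.5 to 32.4). Those 2 types overlapped in each library. NKT-like cells had 0 Zeb2 UMIs in both libraries, which allows up to 34.8 CPM in the Prmt5-CKO and 3.37 CPM in the Control library. Cluster 14 had 26 UMIs in the Prmt5-CKO library, 32.6 CPM, and 0 UMIs in the Control library, which allows up to 21.0 CPM in its 15 cells. B-like cells, which were left out of the T cells, also held Zeb2, at 81.8 CPM in the Prmt5-CKO and 139 CPM in the Control library.

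Tbx21, at chr11:97098071-97115331, spread over more types. Effector-like CD8 cells had 92 UMIs, 76.0 CPM (61.2 to 93.2), in the Prmt5-CKO library and 32 UMIs, 90.5 CPM (61.9 to 128), in the Control library, and the intervals overlapped. NKT-like cells had 69.5 CPM (25.5 to 151) and 47.2 CPM (34.0 to 63.8), S100a4-high memory-like CD4 cells 38.1 and 44.7 CPM, and the Fcer1g cluster 38.5 and 30.2 CPM in Prmt5-CKO and Control cells. Memory-like CD8 cells had 43.0 CPM (25.5 to 68.0) in the Prmt5-CKO and 24.2 CPM (18.03 to 31.8) in the Control library. Naive-like CD4 cells had 4 and 3 Tbx21 UMIs, 0.169 and 0.174 CPM. Among Prmt5-CKO types of at least 50 cells, the interval of effector-like CD8 cells lay above that of the next type, the Fcer1g cluster, and that of the S100a4-high memory-like CD4 cells above that of the proliferating-like cells, while in the Control library the 3 highest such types, NKT-like cells, S100a4-high memory-like CD4 cells and the Fcer1g cluster, overlapped in sequence.

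Eomes, at chr9:118478212-118486132 on the plus strand, did not peak in the effector-like cells. Its highest levels were in the Sox4 cluster, with 130 CPM (105 to 159) in the Prmt5-CKO and 91.3 CPM (72.9 to 113) in the Control library, and in the Tnfrsf9 cluster, with 91.7 CPM (79.6 to 105) and 128 CPM (109 to 148). In the Tnfrsf9 cluster 57 of 248 Prmt5-CKO and 29 of 141 Control cells had a UMI, and 1 cell alone had 29 and 14 UMIs, so few cells carry the sum. Memory-like CD8 cells followed with 71.7 CPM (48.4 to 102) and 70.3 CPM (59.4 to 82.5). Effector-like CD8 cells had 38.8 CPM (28.5 to 51.6) in the Prmt5-CKO and 53.7 CPM (32.3 to 83.9) in the Control library, and naive-like CD8 cells 9.97 CPM (8.14 to 12.1) and 13.7 CPM (11.8 to 15.9). No Eomes UMI was found in NKT-like cells or in cluster 14 of either library, with limits between 3.37 and 34.8 CPM. Over 23 sums of a type and library Tbx21 and Eomes had a Pearson r of 0.016 on log2(CPM + 1), a description across sums that share libraries.

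Prdm1 (chr10:44437177-44528501) was low in most types. Effector-like CD8 cells had 56 UMIs, 46.2 CPM (34.9 to 60.04), in the Prmt5-CKO library and 17 UMIs, 48.1 CPM (28.0 to 76.9), in the Control library. S100a4-high memory-like CD4 cells had 25.2 and 20.03 CPM, and Treg-like cells 12.7 and 11.1 CPM, with overlapping intervals between libraries. NKT-like cells had 0 UMIs in the Prmt5-CKO library, in 10 cells, and 16 UMIs in the Control library, 17.97 CPM. Naive-like CD4 cells, at 3.29 CPM in the Prmt5-CKO and 4.45 CPM in the Control library, held 25.2% and 31.0% of all Prdm1 UMIs because of their number.

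Id2, at chr12:25093799-25097140, was found in every type. It had 1437 CPM in Prmt5-CKO and 1298.5 CPM in Control NKT-like cells, 1119 and 939 CPM in cluster 14, 980 and 714 CPM in S100a4-high memory-like CD4 cells and 955 and 927 CPM in effector-like CD8 cells. Naive-like CD8 cells had 230 CPM (221 to 239) in the Prmt5-CKO and 194 CPM (187 to 202) in the Control library, whereas naive-like CD4 cells had 132 CPM in each (log2 ratio 0.003, -0.075 to 0.082). An Id2 UMI was seen in 139 of 149 Prmt5-CKO and 44 of 45 Control effector-like cells. Of the effector factors it was the one detected in nearly every effector-like cell.

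Maf, at chr8:115682942-115707794, marked memory-like CD4, innate-like and regulatory cells. In S100a4-high memory-like CD4 cells it had 375 UMIs, 286 CPM (258 to 317), in the Prmt5-CKO library and 247 UMIs, 381 CPM (335 to 431), in the Control library. S100a4-low memory-like CD4 cells had 299 CPM (229 to 384) in 23 Prmt5-CKO cells and 347 CPM (322 to 373) in 301 Control cells, cluster 14 had 371 and 477 CPM, and NKT-like cells had 313 and 220 CPM. Treg-like cells had 381 UMIs, 115 CPM (104 to 128), in the Prmt5-CKO and 736 UMIs, 204 CPM (190 to 220), in the Control library. Effector-like CD8 cells had 53.7 CPM (41.4 to 68.4) in the Prmt5-CKO and 122 CPM (88.0 to 164) in the Control library. The Prmt5-CKO interval lay below the Control interval in S100a4-high memory-like CD4, Treg-like and effector-like CD8 cells, and also in naive-like CD4 cells (13.1 and 18.7 CPM), interferon-responding-like cells (21.0 and 42.0 CPM) and proliferating-like cells (75.6 and 104 CPM). It lay above the Control interval in memory-like CD8 cells, with 10 UMIs in each library, 23.9 CPM (11.5 to 43.9) in the Prmt5-CKO and 4.75 CPM (2.28 to 8.73) in the Control library. These UMIs came from 4 of 48 Prmt5-CKO and 8 of 203 Control cells, and 1 Prmt5-CKO cell alone had 6 of them. So few cells carry that sum, in a type where many Prmt5-CKO cells lacked a Cd8b1 UMI.

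Gata3 (chr2:9857078-9890034) was the most even of the lineage factors. It had 153 CPM (140 to 167) in Prmt5-CKO and 130 CPM (118 to 142) in Control Treg-like cells, 134 CPM in S100a4-high memory-like CD4 cells of each library, 127 and 140 CPM in NKT-like cells, 51.1 and 54.6 CPM in naive-like CD4 cells and 27.0 and 28.3 CPM in naive-like CD8 cells. Cluster 14 had 96.5 CPM (76.1 to 121) in 103 Prmt5-CKO cells and 168 CPM (108 to 250) in 15 Control cells. Bcl6 (chr16:23965052-23988852) was low throughout. The Tnfrsf9 cluster had 23.2 CPM (17.3 to 30.4) in the Prmt5-CKO and 13.4 CPM (7.97 to 21.2) in the Control library, the Sox4 cluster 13.6 and 15.04 CPM, Treg-like cells 9.09 and 13.05 CPM, and naive-like CD4 cells 5.01 and 5.15 CPM. S100a4-low memory-like CD4 cells, the type whose leading genes include the Tfh genes Tbc1d4, Tox2 and Icos, had 6 Bcl6 UMIs in 23 Prmt5-CKO cells and 20 UMIs in 301 Control cells, 29.4 CPM (10.8 to 64.0) and 9.85 CPM (6.02 to 15.2).

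Zbtb16, at chr9:48654297-48836222, was held by innate-like cells, and by different ones in the libraries. NKT-like cells had 8 UMIs, 92.7 CPM (40.02 to 183), in 10 Prmt5-CKO cells and 115 UMIs, 129 CPM (107 to 155), in 108 Control cells. Cluster 14 had 65 UMIs, 81.4 CPM (62.8 to 104), in 103 Prmt5-CKO cells and 9 UMIs, 63.1 CPM (28.8 to 120), in 15 Control cells. Thus 67.7% of the Zbtb16 UMIs of Prmt5-CKO T cells lay in cluster 14 and 8.33% in NKT-like cells, against 5.26% and 67.3% of those of Control T cells. Levels within either type overlapped between libraries. Treg-like cells had 0 Zbtb16 UMIs in both libraries, which allows up to 0.909 CPM in the Prmt5-CKO and 0.833 CPM in the Control library.

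**Figure D2:**
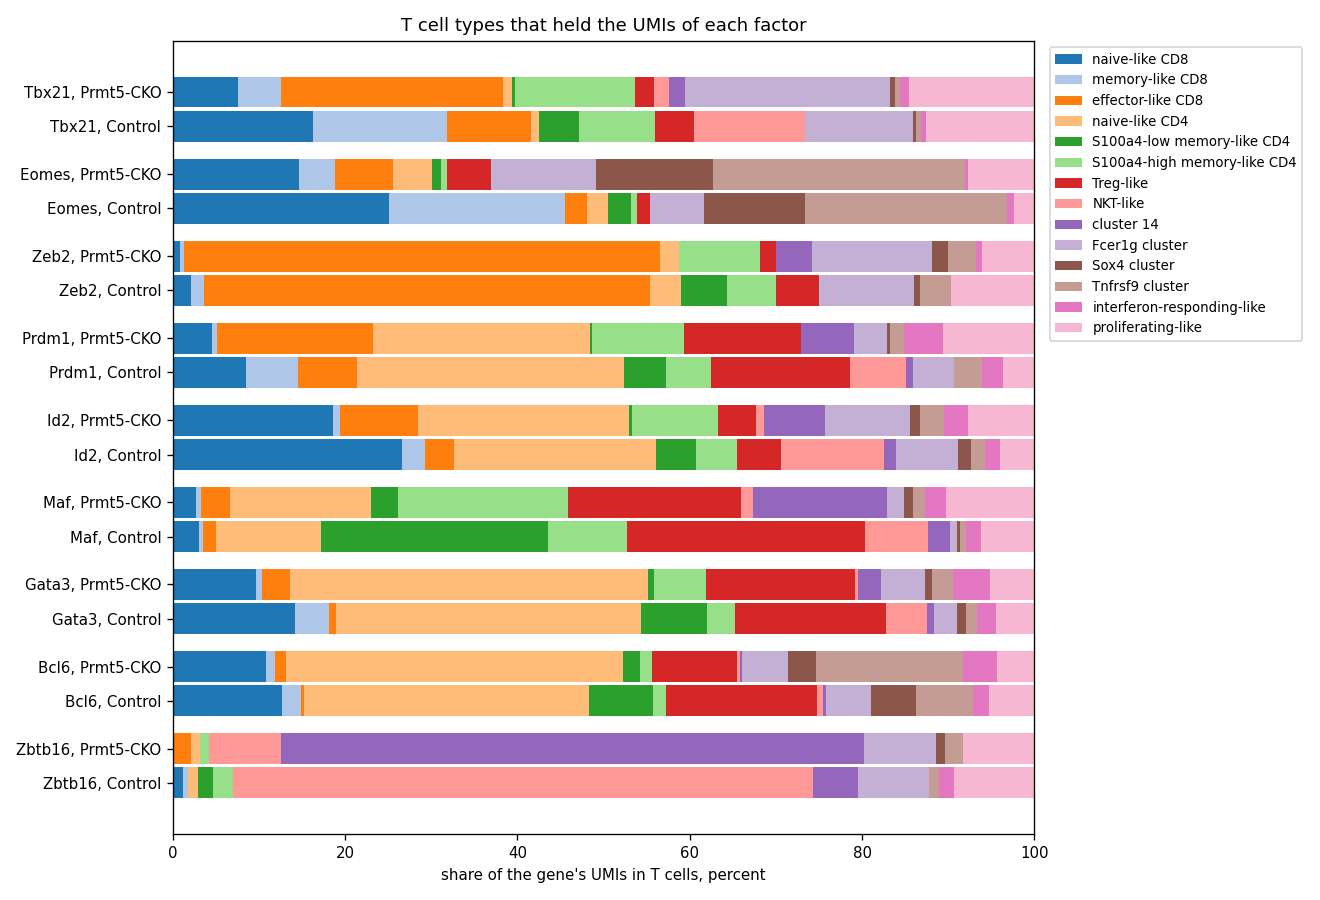
Share of each factor's UMIs in T cells (horizontal axis, percent) held by each of 14 T cell types (colours), with the Prmt5-CKO bar above the Control bar of each gene. Effector-like CD8 cells hold 55.3% and 51.8% of the Zeb2 UMIs, and the Zbtb16 bars show cluster 14 with 67.7% in the Prmt5-CKO and NKT-like cells with 67.3% in the Control library.

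Over all T cells Zeb2 was higher and Maf and Zbtb16 were lower in the Prmt5-CKO library. Zeb2 had 638 UMIs in the Prmt5-CKO and 280 UMIs in the Control library, 12.4 and 5.99 CPM, a log2 ratio of 1.05 (0.85 to 1.26). Maf had 1903 and 2670 UMIs, 37.1 and 57.2 CPM, a log2 ratio of -0.63 (-0.71 to -0.54), and Zbtb16 had 96 and 171 UMIs, 1.87 and 3.66 CPM, a log2 ratio of -0.97 (-1.35 to -0.60). Thus 1 of 9 factors passed 1.5-fold upward, where 4.95% of 11515 genes did, and 2 of 9 downward, where 2.12% did. Tbx21 (log2 ratio -0.006), Gata3 (-0.008), Bcl6 (0.04), Prdm1 (0.19), Eomes (-0.18) and Id2 (0.26) lay within the limits. The median of the 9 log2 ratios was -0.006, and that of all genes 0.053. When cells were clustered after the stricter filter the log2 ratio of Zeb2 was 0.098, and with the levels of the Prmt5-CKO types weighted by the Control mix of types it was 0.055, while that of Maf was -0.79 and -0.34. Zbtb16 had 44 UMIs in the Prmt5-CKO and 36 UMIs in the Control library with the stricter filter and the types kept, a log2 ratio of -0.55 (-1.22 to 0.13), so that it no longer passed 1.5-fold.

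**Figure D3:**
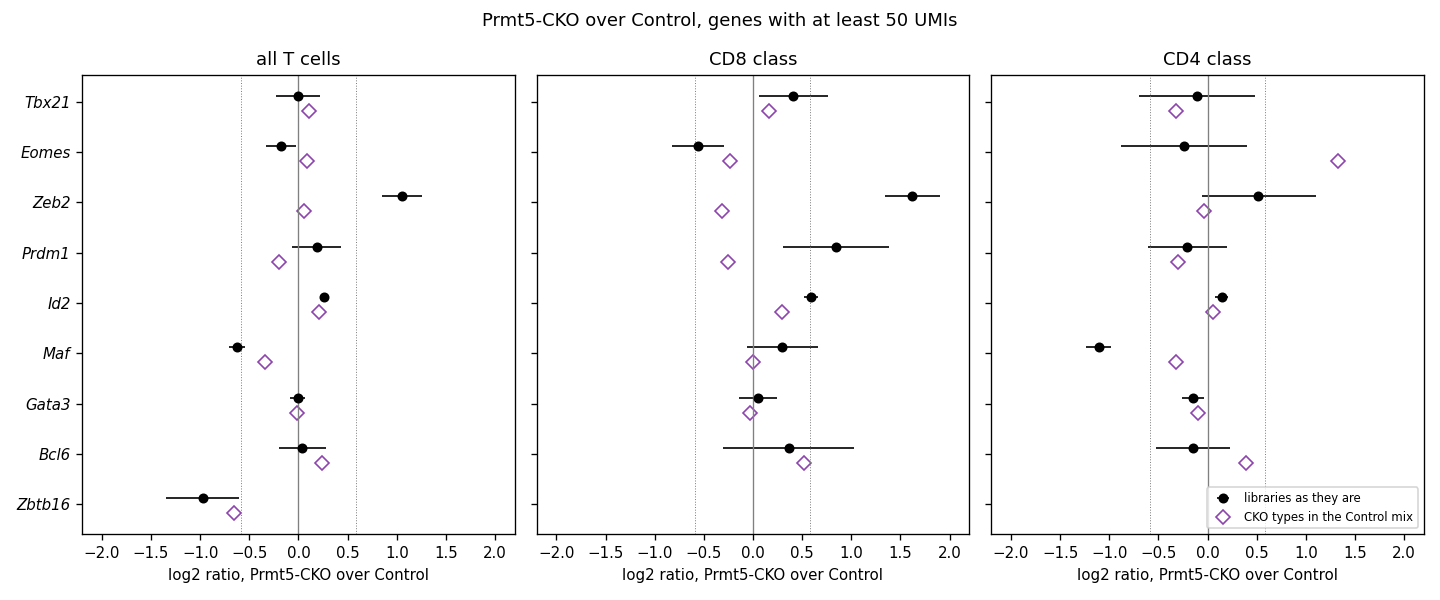
Log2 ratio of Prmt5-CKO over Control (horizontal axis) for each factor with at least 50 UMIs in all T cells, the CD8 class and the CD4 class, as black points with exact 95% counting intervals. Open diamonds give the ratio with Prmt5-CKO types in the Control mix, and dotted lines mark 1.5-fold. In the CD8 class the Zeb2 point at 1.62 and its diamond at -0.31 lie on opposite sides of 0.

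The CD8 class of naive-like, memory-like and effector-like cells (1599 Prmt5-CKO and 2016 Control cells) showed the largest difference for Zeb2. It had 361 UMIs, 30.2 CPM (27.1 to 33.5), in Prmt5-CKO CD8 cells and 155 UMIs, 9.83 CPM (8.34 to 11.5), in Control CD8 cells, a log2 ratio of 1.62 (1.34 to 1.90). Prdm1 had 72 and 53 UMIs, 6.02 and 3.36 CPM, a log2 ratio of 0.84 (0.31 to 1.38). Id2 had 304 CPM (294 to 314) in the Prmt5-CKO and 201 CPM (194 to 208) in the Control library, a log2 ratio of 0.59 (0.52 to 0.66). So 3 of 8 counted factors were higher, where 6.17% of all genes were, and 0 were lower, where 1.85% were. Eomes lay on the other side, with 180 UMIs, 15.05 CPM, in the Prmt5-CKO and 350 UMIs, 22.2 CPM, in the Control library, a log2 ratio of -0.56 (-0.83 to -0.30), just inside the 1.5-fold limit. In the Sox4 cluster, outside this class though most of its cells had a Cd8b1 UMI, the Eomes ratio was 0.51 (0.07 to 0.95). In the CD8 class Tbx21 had 11.5 and 8.62 CPM, a log2 ratio of 0.41 (0.06 to 0.76), and the intervals of Maf, Gata3 and Bcl6 included 0. NK markers summed to 7.27 CPM in Prmt5-CKO and 3.93 CPM in Control CD8 cells, with Ncr1 at 0 in both, and their part in the result was not tested.

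Within the effector-like CD8 cells themselves no counted factor passed 1.5-fold upward. Zeb2 had a log2 ratio of -0.49 (-0.77 to -0.20), Tbx21 -0.25 (-0.85 to 0.38), Prdm1 -0.06 (-0.86 to 0.82), Id2 0.04 (-0.14 to 0.22), Eomes -0.47 (-1.27 to 0.38) and Maf -1.18 (-1.76 to -0.59). Maf was the 1 factor of 7 counted as lower, where 7.23% of genes were, and 0 were higher, where 7.34% were. The effector-like cells made up 9.32% of the Prmt5-CKO and 2.23% of the Control CD8 cells. When the Prmt5-CKO levels of the 3 CD8 types were weighted by the Control mix, the CD8 log2 ratios became -0.31 for Zeb2, -0.25 for Prdm1 and 0.30 for Id2. The effector-like values themselves moved with the grouping of cells: when cells were clustered after the stricter filter, which gave 169 Prmt5-CKO and 126 Control effector-like cells, the log2 ratio was 0.59 for Zeb2, 0.65 for Tbx21, 0.82 for Id2 and 0.088 for Maf, so that the first 3 passed 1.5-fold upward. With the types kept and the stricter filter applied afterwards, Zeb2 had -0.76, Tbx21 0.04, Id2 -0.02 and Maf -1.25. The direction within effector-like cells thus depended on which cells were grouped there. NK markers summed to 53.7 CPM in effector-like cells of each library, with Ncr1 and Klra4 at 0.

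The cell filter also bore on the CD8 class. With the types kept, 69.5% of Prmt5-CKO and 40.2% of Control CD8 cells passed the stricter filter, against 71.8% and 80.0% of the effector-like cells. Among passing CD8 cells Zeb2 had 29.9 CPM in the Prmt5-CKO and 22.0 CPM in the Control library, a log2 ratio of 0.44 (0.14 to 0.75), Prdm1 0.31 (-0.36 to 1.002), Id2 0.44 (0.34 to 0.53) and Eomes -0.61 (-0.95 to -0.27). So 0 of the 3 factors counted as higher passed 1.5-fold under that filter, while Eomes then passed it downward. By the first filter Id2 had a log2 ratio of 0.24 (0.16 to 0.32) in naive-like and 0.94 (0.59 to 1.28) in memory-like CD8 cells, the type in which many Prmt5-CKO cells lacked a Cd8b1 UMI. In naive-like CD8 cells Tbx21 had 27 UMIs in the Prmt5-CKO and 53 UMIs in the Control library, a log2 ratio of -0.61 (-1.33 to 0.09), and Eomes had a log2 ratio of -0.46 (-0.83 to -0.11). Tbx21 was the 1 factor of 6 counted as lower there, where 2.21% of genes were, with 0 higher, where 5.22% were, and its counting interval includes 0. With the stricter filter and the types kept, Eomes in naive-like CD8 cells had a log2 ratio of -0.62 (-1.06 to -0.18), past 1.5-fold. Tbx21 then had -0.77 (-1.69 to 0.14), on 20 Prmt5-CKO and 25 Control UMIs. Memory-like cells had 2 of 4 counted as higher, Tbx21 and Id2, where 7.94% of genes were, and 0 as lower, where 9.44% were. With the stricter filter and the types kept, Tbx21 in memory-like cells had 9 UMIs in the Prmt5-CKO and 21 UMIs in the Control library, a log2 ratio of 0.32 (-0.99 to 1.505), inside the limits.

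In the CD4 class (4250 Prmt5-CKO and 3308 Control cells, naive-like and memory-like) Maf was lower and the other counted factors were within 1.5-fold. Maf had 747 UMIs, 29.6 CPM (27.5 to 31.8), in the Prmt5-CKO and 1274 UMIs, 63.8 CPM (60.4 to 67.4), in the Control library, a log2 ratio of -1.11 (-1.24 to -0.98). That is 1 of 8 lower, where 2.51% of genes were, and 0 higher, where 3.38% were. In the Control mix of types the Maf ratio was -0.32, with S100a4-low memory-like cells, 23 in the Prmt5-CKO and 301 in the Control library, among the types reweighted. Gata3 (-0.15), Bcl6 (-0.15), Prdm1 (-0.20), Tbx21 (-0.11), Eomes (-0.24), Id2 (0.14) and Zeb2 (0.51, -0.06 to 1.10) completed the class, and Zbtb16 had 2 and 9 UMIs. Within S100a4-high memory-like CD4 cells Zeb2 had 60 UMIs in the Prmt5-CKO and 16 UMIs in the Control library, a log2 ratio of 0.89 (0.08 to 1.79). It was the 1 factor of 5 counted as higher there, where 7.01% of genes were, with 0 lower, where 4.39% were, while Cd8b1 stood at 117 and 277 CPM and Prmt5 had 8 and 2 UMIs in the same Prmt5-CKO and Control cells. With the stricter filter and the types kept its ratio was 1.19 (0.08 to 2.48), on 44 Prmt5-CKO and 8 Control UMIs, and clustered anew after that filter it was -0.51. The mix of clusters within the S100a4-high type differed between the libraries, and its part in the Zeb2 and Maf ratios of that type was not tested. In the Fcer1g cluster Zeb2 had a log2 ratio of 0.82 (0.22 to 1.46), with 1 of 6 higher where 5.45% of genes were and 0 lower where 2.54% were, and its ratio was 0.61 (-0.13 to 1.41) with the stricter filter and the types kept, but -1.73 when clustered anew after that filter.

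In the remaining types few factors passed the limits. Naive-like CD4 cells had 0 of 6 counted factors higher, where 3.91% of genes were, and 0 lower, where 1.88% were. S100a4-low memory-like CD4 cells had 0 of 3 in either direction, where 8.25% and 16.9% of genes were higher and lower, and so did the Sox4 cluster, where 6.28% and 6.49% were. NKT-like cells, 10 in the Prmt5-CKO library, had 0 of 4 in either direction, where 13.6% of genes were higher and 18% lower. In cluster 14 Gata3 was the 1 factor of 4 lower (log2 ratio -0.80, -1.48 to -0.08), where 8.69% of genes were, and 0 were higher, where 16.6% were. In the Tnfrsf9 cluster Bcl6 was the 1 of 4 higher (0.78, -0.01 to 1.65), where 3.39% of genes were, with 0 lower, where 3.84% were. In interferon-responding-like cells Maf was the 1 of 3 lower (46 UMIs in the Prmt5-CKO and 47 in the Control library, -0.998, -1.62 to -0.38), where 4.09% of genes were, with 0 higher, where 5.6% were. Proliferating-like cells had 2 of 6 higher, Id2 (0.65, 0.48 to 0.83) and Eomes (54 UMIs in the Prmt5-CKO and 17 in the Control library, 0.97, 0.16 to 1.85), where 6.11% of genes were, and 0 lower, where 3.28% were. With the stricter filter and the types kept, Eomes there had a log2 ratio of 0.35 (-0.53 to 1.29), inside the limits, and Id2 0.66 (0.46 to 0.86). Their median depth was 15744 UMIs in the Prmt5-CKO and 19622 UMIs in the Control library.

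CD8 cells were also split by a UMI of Klrg1, which is no member of the 9. Of the Klrg1+ cells, 78 of 82 in the Prmt5-CKO and 24 of 26 in the Control library were effector-like. The split therefore largely sets effector-like cells against other CD8 cells. Klrg1 had 205 UMIs in Prmt5-CKO and 71 UMIs in Control CD8 cells (log2 ratio 1.93, 1.53 to 2.34), and 82 of 1599 and 26 of 2016 cells had a UMI. With the stricter filter and the types kept, its log2 ratio was 0.95 (0.50 to 1.41) in the CD8 class. Within effector-like cells it was then -0.30 (-0.74 to 0.16). Zeb2 had 357 CPM (314 to 404) in Klrg1+ and 9.77 CPM (8.03 to 11.8) in Klrg1- cells of the Prmt5-CKO library, and 388 CPM (312 to 477) and 4.18 CPM (3.23 to 5.33) in those of the Control library. Tbx21 had 90.9 and 6.48 CPM in Klrg1+ and Klrg1- cells of the Prmt5-CKO library, and 73.3 and 7.66 CPM in those of the Control library. Id2 had 1012 and 259 CPM in the Prmt5-CKO and 888 and 191 CPM in the Control library, and Prdm1 had 41.2 and 3.82 CPM against 38.8 and 2.83 CPM. Eomes differed least of these 5, with 44.0 and 13.2 CPM in the Prmt5-CKO and 60.3 and 21.6 CPM in the Control library. Median depth was 6527.5 UMIs in Klrg1+ and 6909 UMIs in Klrg1- cells of the Prmt5-CKO library, and 7441 and 7321 UMIs in those of the Control library.

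Among Klrg1+ CD8 cells, 26 of them in the Control library, the intervals of the ratios of Zeb2 (-0.12, -0.47 to 0.24), Tbx21 (0.31, -0.48 to 1.18), Prdm1 (0.09, -1.03 to 1.35), Id2 (0.19, -0.04 to 0.42), Eomes (-0.45, -1.41 to 0.57) and Gata3 (0.40, -0.50 to 1.40) included 0. Those of Zeb2 and Id2 lay within 1.5-fold, while the others, on 9 to 17 Control UMIs, also allow larger differences in at least 1 direction. Maf was the exception, with 61.1 CPM (44.2 to 82.3) in Prmt5-CKO and 121 CPM (80.2 to 174) in Control Klrg1+ cells, a log2 ratio of -0.98 (-1.70 to -0.24). Among Klrg1- CD8 cells Zeb2 had a log2 ratio of 1.22 (0.77 to 1.69), Id2 of 0.44 (0.37 to 0.52) and Eomes of -0.71 (-0.996 to -0.43). A cell without a Klrg1 UMI can still express the gene at this depth, so the Klrg1- sets are mixed: 71 of the 149 Prmt5-CKO and 21 of the 45 Control effector-like cells had no Klrg1 UMI. In those effector-like cells Zeb2 had 190 CPM (155 to 231) in the Prmt5-CKO and 397 CPM (299 to 517) in the Control library, against 372 and 418 CPM in effector-like cells with a Klrg1 UMI. Tbx21 had 94.7 CPM with and 52.3 CPM without a Klrg1 UMI in Prmt5-CKO effector-like cells, but 78.9 and 108 CPM in Control ones. Prdm1 had 42.9 and 50.4 CPM in the Prmt5-CKO and 37.1 and 65.0 CPM in the Control library, with overlapping intervals. Id2 had 1045 and 842 CPM, and 952 and 889 CPM.

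**Figure D4:**
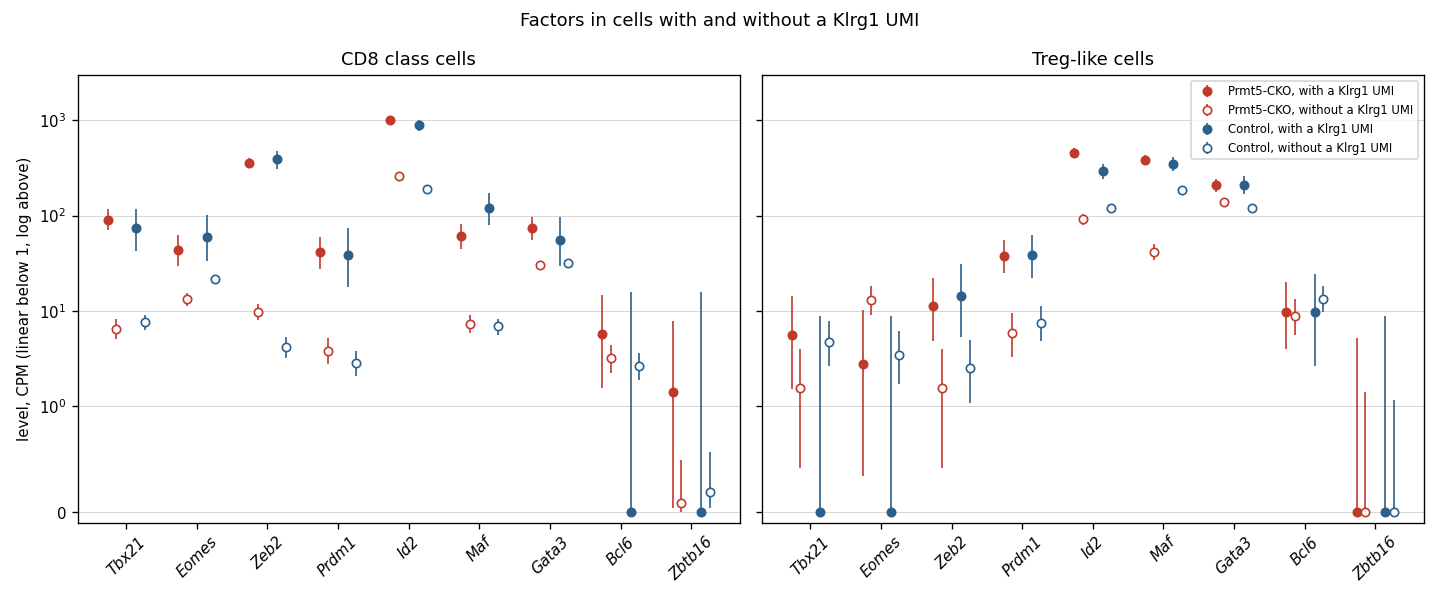
Level of each factor in CPM (vertical axis, linear below 1 and log above) in CD8 class cells and Treg-like cells with (filled) and without (open) a Klrg1 UMI, Prmt5-CKO left of Control for each gene, with exact 95% counting intervals. In Treg-like cells Maf stands at 382 CPM and 349 CPM with a Klrg1 UMI, but at 41.7 CPM in the Prmt5-CKO and 185 CPM in the Control library without one.

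Treg-like cells held more Klrg1 UMIs than any other T cell type of the Prmt5-CKO library, and Maf differed between the libraries in those without a Klrg1 UMI. Klrg1 had 452 UMIs, 137 CPM, in the Prmt5-CKO and 202 UMIs, 56.1 CPM, in the Control library, a log2 ratio of 1.29 (1.05 to 1.53). Since the gene that splits the cells itself differed, the sets with and without a UMI need not hold like cells in the libraries, and its part in the Maf values was not tested. In Treg-like cells with a Klrg1 UMI, 76 Prmt5-CKO and 39 Control cells, Maf had 382 CPM (338 to 430) and 349 CPM (294 to 411), a log2 ratio of 0.13 (-0.17 to 0.43). In those without, 393 and 475 cells, it had 108 UMIs, 41.7 CPM (34.2 to 50.4), in the Prmt5-CKO and 591 UMIs, 185 CPM (171 to 201), in the Control library, a log2 ratio of -2.15 (-2.46 to -1.85). A Maf UMI was present in 48 of 393 Prmt5-CKO and 170 of 475 Control Klrg1- cells, and in 65 of 76 and 35 of 39 Klrg1+ cells. The ratio in Klrg1- cells was -2.04 with the stricter filter, -2.01 in cells with a Y-linked UMI and -1.93 in cells with an Xist UMI. Median depth in the Klrg1- cells was 5476 UMIs in the Prmt5-CKO and 5792 UMIs in the Control library.

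Over all Treg-like cells the Maf ratio was -0.82 (-1.01 to -0.64), which made Maf 1 of 5 factors counted as lower, where 4.43% of genes were, with 0 higher, where 4.05% were. Id2 and Prdm1 were also higher in Klrg1+ than in Klrg1- Treg-like cells of both libraries. Id2 had 455 CPM in Klrg1+ and 91.2 CPM in Klrg1- cells of the Prmt5-CKO library, and 291 and 120 CPM in those of the Control library. Its log2 ratio between the libraries was 0.64 (0.34 to 0.96) in Klrg1+ and -0.40 (-0.64 to -0.16) in Klrg1- cells. Prdm1 had 37.8 and 5.80 CPM in Klrg1+ and Klrg1- cells of the Prmt5-CKO library, and 38.5 and 7.53 CPM in those of the Control library. Gata3 was less divided, with 207 and 138 CPM in the Prmt5-CKO and 209 and 119 CPM in the Control library. Zeb2 had 8 UMIs in Prmt5-CKO and 6 UMIs in Control Klrg1+ Treg-like cells, 11.2 and 14.4 CPM, where Klrg1+ CD8 cells had 357 and 388 CPM. Eomes went the other way, with 2 UMIs in Klrg1+ and 34 UMIs in Klrg1- cells of the Prmt5-CKO library, and 0 and 11 UMIs in those of the Control library. Bcl6 had 9.79 and 8.89 CPM in Klrg1+ and Klrg1- cells of the Prmt5-CKO library, and 9.62 and 13.5 CPM in those of the Control library.

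Within effector-like CD8 cells Tbx21 was seen with Zeb2 or Eomes about as often as their shares give, while some other pairs, there and in other types, were seen more often. In Prmt5-CKO effector-like CD8 cells Tbx21 and Zeb2 were seen together in 38 of 149 cells, where the product of their shares gives 38.9, and in Control effector-like cells in 11 of 45, where it gives 11.7. Tbx21 and Eomes met in 12 Prmt5-CKO and 5 Control effector-like cells, where the products give 13.9 and 4.16, and Prdm1 and Maf in 11 and 4, where they give 8.19 and 4.33. Tbx21 and Gata3 met there in 28 and 8 cells, where the products give 22.5 and 4.53, and Eomes and Maf in 6 and 1, where they give 7.53 and 3.67. Over the CD8 class, which mixes types, Tbx21 and Zeb2 met in 40 Prmt5-CKO cells where the product gives 6.25, and in 13 Control cells where it gives 1.86. In S100a4-high memory-like CD4 cells, Tbx21 and Zeb2 met in 12 of 146 Prmt5-CKO and 4 of 89 Control cells, where the products give 5.82 and 2.47, and Zeb2 and Maf in 19 and 3, where they give 18.3 and 6.52. In Treg-like cells Prdm1 and Maf met in 18 of 469 Prmt5-CKO and 24 of 514 Control cells, where the products give 7.95 and 12.8, and Id2 and Maf in 68 and 89, where they give 40.7 and 70.6. Treg-like cells also mix cells with and without a Klrg1 UMI, which differed in levels of Prdm1, Id2 and Maf. Their median depths were 7944.5 and 5476 UMIs in the Prmt5-CKO and 7819 and 5792 UMIs in the Control library. All these pairs are counts within 1 library each, and undetected RNA keeps them low.

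Across 23 sums of a type and library with at least 50 cells, the genes most like each factor were found by Pearson r of log2(CPM + 1) among 9010 genes, as a description of sums that share libraries and depth. Tbx21 was followed by Il18rap (0.945), Ccl5 (0.933) and Ifng (0.916), the first a receptor chain for IL-18 and the others a chemokine and the cytokine interferon-γ. Eomes was followed by Crtam (0.883), Pou2af1 (0.811) and Bend4 (0.754), and Prdm1 by Sytl2 (0.910), Ttc39c (0.886) and Plekho2 (0.855). The nearest to Id2 was Nabp1 (0.919), to Zeb2 H2afy (0.870), to Maf Nav2 (0.936), to Gata3 Vamp8 (0.913), to Bcl6 Mrps6 (0.888) and to Zbtb16 Sptssa (0.878). Between members the highest values were those of Maf with Gata3 (0.860), Tbx21 with Id2 (0.790) and Prdm1 with Gata3 (0.777), and the lowest that of Eomes with Gata3 (-0.572).

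Genes that act beside these factors were counted in lists. In the CD8 class 12 of 14 terminal effector genes were higher in the Prmt5-CKO library, where 6.17% of all genes were, and 0 were lower, where 1.85% were, with a median log2 ratio of 1.8 where all genes had 0.098. The granzyme genes Gzmb (50.1 and 7.80 CPM in Prmt5-CKO and Control CD8 cells, log2 ratio 2.68), Gzma (418 and 74.8 CPM, 2.48) and Gzmk (2.39) and the integrin gene Itgax (2.70) had the largest ratios. Of this list Gzma was used to name the effector-like CD8 cells, the type that held most Zeb2 UMIs. Ccl5, Gzmb, Ccl4, Klrk1, Cx3cr1, Gzmk and Klre1 were also leading genes of that type. It made up 9.32% of Prmt5-CKO and 2.23% of Control CD8 cells, and the part of this mix in the list ratios was not tested. Ratios of this list with the stricter filter are not given, apart from that of Klrg1, which was 0.95 in place of 1.93. Of 15 memory genes 1 was higher, the survival gene Bcl2 (0.60), and 1 lower, the homing receptor gene Ccr7 (-0.59), with a median of 0.0006. Among E proteins, which ID proteins bind, and other ID proteins, 1 of 5 counted was higher, Tcf4 (0.78), while Id3 had a log2 ratio of 0.29, Id1 of 0.11 and Tcf12 of -0.10. Of 21 other effector factors counted, 5 were higher and 16 within the limits, beside the same 6.17% of all genes higher, among them Bhlhe40 (1.85), Ikzf2 (1.09), Rora (0.72) and Runx2 (0.72). Of 6 late effector genes, 1 was higher, Cd160 (0.72), and Ctla4 (-0.29), Il2 (0.26) and S1pr1 (-0.23) were within the limits.

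In the CD4 class genes of Tfh cells, in which Bcl6 and Maf act, were in part lower. Of 13 Tfh genes 5 were lower in the Prmt5-CKO library, where 2.51% of all genes were, 0 were higher, where 3.38% were, and 8 lay within the limits, with a median log2 ratio of -0.38 where all genes had 0.021. They included the factor gene Tox2 (1.47 and 4.66 CPM in Prmt5-CKO and Control CD4 cells, log2 ratio -1.67), the chemokine receptor gene Cxcr5 (19 and 43 UMIs, -1.52), Tbc1d4 (16.6 and 37.6 CPM, -1.18) and the costimulator gene Icos (-0.78). Tbc1d4, Tox2 and Icos lead the S100a4-low memory-like cells, of which the Prmt5-CKO library had 23. Genes near GATA3 in Th2 cells showed 0 of 4 past the limits, with Gfi1 at -0.39, Stat6 at 0.31, Ccr4 at 0.22 and Il4ra at 0.02. Of 9 genes of innate-like T cells, the cells in which PLZF acts, 8 were higher and 1, Icos, was lower, beside the same 3.38% and 2.51% of all genes, with a median of 1.05. Tmem176b (1.78), Tmem176a (1.72), Cxcr6 (1.496) and the chemokine receptor gene Ccr6 (1.30) led them, while Zbtb16 itself had 2 UMIs in the Prmt5-CKO and 9 in the Control CD4 class. The types that held most Zbtb16 UMIs of either library are not in this class. Tmem176a and Cxcr6 are among the leading genes of the clusters that make up the S100a4-high memory-like CD4 cells. That type had 146 Prmt5-CKO and 89 Control cells, of which 78 and 30 fell into the cluster with Tmem176a among its leading genes. The part of that type and of its mix of clusters in the ratios of this list was not tested.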

How the data were processed

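The deposited files hold raw UMI counts per gene and cell barcode for 1 library a group, which the authors made from 3′ reads; the submitters' processing notes name Cell Ranger 3.1.0, CASAVA 1.8, Seurat 2.3.4 and mm10 without their roles. The members and lists were chosen with earlier results of these data known. Barcodes were kept from 500 detected genes upward if less than 10% of their UMIs were mitochondrial. They were clustered in scanpy 1.11.5 without the 9 factors (2000 variable genes, 30 components, 15 neighbours, Leiden resolution 1), and clusters with Il2rb UMIs in at least 55% of cells were split again. Names came from marker shares whose thresholds were set after the clusters were seen. Scrublet called 0 doublets in either library and so did not work. UMIs were summed per type and library into CPM, with exact Poisson, conditional binomial and Clopper-Pearson 95% intervals. With 1 library a group there is no test. Only the calculation of ratios and their intervals was tested on simulated counts with known fold changes. The 9 factors were named throughout, and from each list up to 4 genes with the largest absolute ratios and for each factor up to 3 genes most like it. GENCODE vM21 gave positions, and no promoter window was at hand for Maf and Zbtb16. The alternatives included other filters, resolutions and gates; the Klrg1 split of Treg-like cells, the Control mix of types and the filter applied after naming were added after the data were seen.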

Additional observations from a re-analysis of the deposited data

How the results depend on the processing

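No paired analysis was possible because each group is 1 library. Of 955 log2 ratios recomputed under 13 settings, those over all T cells stayed within their counting interval in 83 cases and left it in 25. Those in classes and types stayed in 746 cases and left it in 94, and 7 more changed sign after being past 1.5-fold. Clustering after the stricter filter gave log2 ratios over all T cells of -0.39 for Tbx21, -0.36 for Eomes, 0.098 for Zeb2, -0.096 for Prdm1, 0.15 for Id2, -0.79 for Maf, -0.12 for Gata3 and -0.55 for Zbtb16, with 0 factors higher in CD8 cells. It changed the sign of Maf in effector-like CD8 cells (0.088) and of Zeb2 in S100a4-high CD4 cells (-0.51) and the Fcer1g cluster (-1.73), and gave no memory-like CD8 type. The Control mix gave 0.088 for Eomes, 0.055 for Zeb2, -0.20 for Prdm1, 0.21 for Id2 and -0.34 for Maf, with 0 factors higher in CD8 cells, 1 higher and 0 lower in CD4 cells, and changed the sign of Zeb2 (-0.31) and Prdm1 (-0.25) in CD8 cells. Cells with a Y-linked UMI gave -0.0048 for Eomes, 0.55 for Zeb2, 0.31 for Id2, -0.89 for Maf, -0.11 for Gata3 and -0.39 for Bcl6, with 1 factor lower in CD8 cells, and -0.00020 for Eomes in proliferating-like cells. Cells with an Xist UMI gave -0.50 for Maf, with 1 factor higher in CD4 cells. Mean CPM per cell gave 0.19 for Id2 and -0.88 for Maf. CPM without mitochondrial, ribosomal and receptor genes gave 0.21 for Id2, and without the proliferating-like, Tnfrsf9 and Fcer1g cells Eomes was -0.52 and Id2 0.20. In CD8 cells 1 factor, Eomes, was lower without those genes, without the 6% of cells with the highest doublet scores, and when clustered without genes that differ 2-fold. Gates gave 1 factor higher in CD8 and 2 lower in CD4 cells, the looser filter 1 higher in CD4 cells, and leaving the factors in the clustering gave -0.39 for Tbx21 in memory-like CD8 cells. The cause was not tested. Sums under 50 UMIs limit Prdm1, Bcl6 and Zbtb16 in most types.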
